A study of Solenopsis invicta with 3 samples.

Results

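In antennae of fire ant (Solenopsis invicta) workers, 37 genes were at least 1.6-fold higher in the library from monogyne colonies than in either library from polygyne colonies, while the lower polygyne library held at least 0.8 of the value of the higher one. They were chosen by these measured values, making up 0.681% of the 5435 genes with a mean normalized read count from 30 to below 1500, and the tables held 19703 genes. A normalized read count is an expected count (the number of reads that RSEM, the authors' quantification program, assigned to a gene) divided by a scaling factor of its library. Genes whose IDs mark them as odorant receptors (SiOR) were outside the rule, as were 5 other IDs. Only 23 of the 473 SiOR IDs and 3 of the 5 others lay in the count window. Of these, 0 met the remaining conditions, which at a share of 0.681% over all genes compared says little about either kind.

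Antennal RNA came from foraging workers of 3 classes. M_BB workers were monogyne (1 queen to the colony) and SB/SB at the social supergene. P_Bb workers were polygyne (several queens to the colony) and SB/Sb, and P_BB workers were polygyne and SB/SB. M_BB and P_BB therefore share the genotype, and P_Bb and P_BB share the social form. Each class was 1 library of RNA pooled over colonies, and the labels list 4 colonies for a pool, although the design text speaks of 3 of 4 pooled replicates. The P_Bb and P_BB pools name the same colonies and the M_BB pool names others, so social form and colony origin cannot be told apart. With 1 library per class there was no replicate check and no test between classes. Intervals given for a ratio cover counting error only, and since the reads carried no molecular identifiers they are not intervals of independent molecules.

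The antenna is the main organ of smell of an ant. Its sensilla hold olfactory receptor neurons and the support cells that secrete odorant-binding and odorant-degrading proteins, and its cuticle and haemolymph bring epidermal cells and blood cells into an antennal RNA pool. Workers of the monogyne form tolerate a single queen, while workers of the polygyne form accept additional queens that carry the Sb variant of the supergene. The study presumes that SB/Sb workers make this choice by chemical differences on the cuticle of queens, and the cue is unknown. In whole antennae, a larger number of cells of a type and more RNA per cell cannot be told apart.

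The libraries held 1310209 to 1800106 expected counts over 13011 to 13507 genes. Of the 473 SiOR IDs, 437 had a count in M_BB, 431 in P_Bb and 439 in P_BB, so the receptors that mark the antenna were counted in each library. The most abundant pair of genes took 6.03% of all counts in M_BB (5.996 to 6.07%, 95% intervals by Wilson's method), 10.2% (10.1 to 10.2%) in P_Bb and 12.2% (12.2 to 12.3%) in P_BB. That difference enters any scaling by library total, and how much of the gap between scalings it makes up was not tested. The rule scaled the counts below by the 75th percentile of each library.

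Only 1 of the 37 genes carries a predicted function in the study's text. SINVm1_gene_06423 was annotated as croquemort-like. Croquemort is a scavenger receptor of the CD36 family, known in Drosophila for the uptake of apoptotic cells by blood cells. Its normalized read count was 99.4 in M_BB, against 47.6 in P_Bb and 59.2 in P_BB. The single monogyne library was thus the high one, 2.08-fold above P_Bb (log2 ratio 1.05, 95% counting interval 0.53 to 1.58) and 1.67-fold above P_BB (0.74, 0.30 to 1.19). Every read given to this gene was assigned without ambiguity (posterior SD 0 in each library). Among the 37 it had the second widest gap between the polygyne libraries, 1.24-fold, close to the limit. The study's own list of genes higher in monogyne workers held this gene, so its place there is not independent of the values given here. The other 36 genes have no name in the files, in the study's text or in the reference gene table, and they are described by their IDs, levels and lengths.

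**Figure D1:**
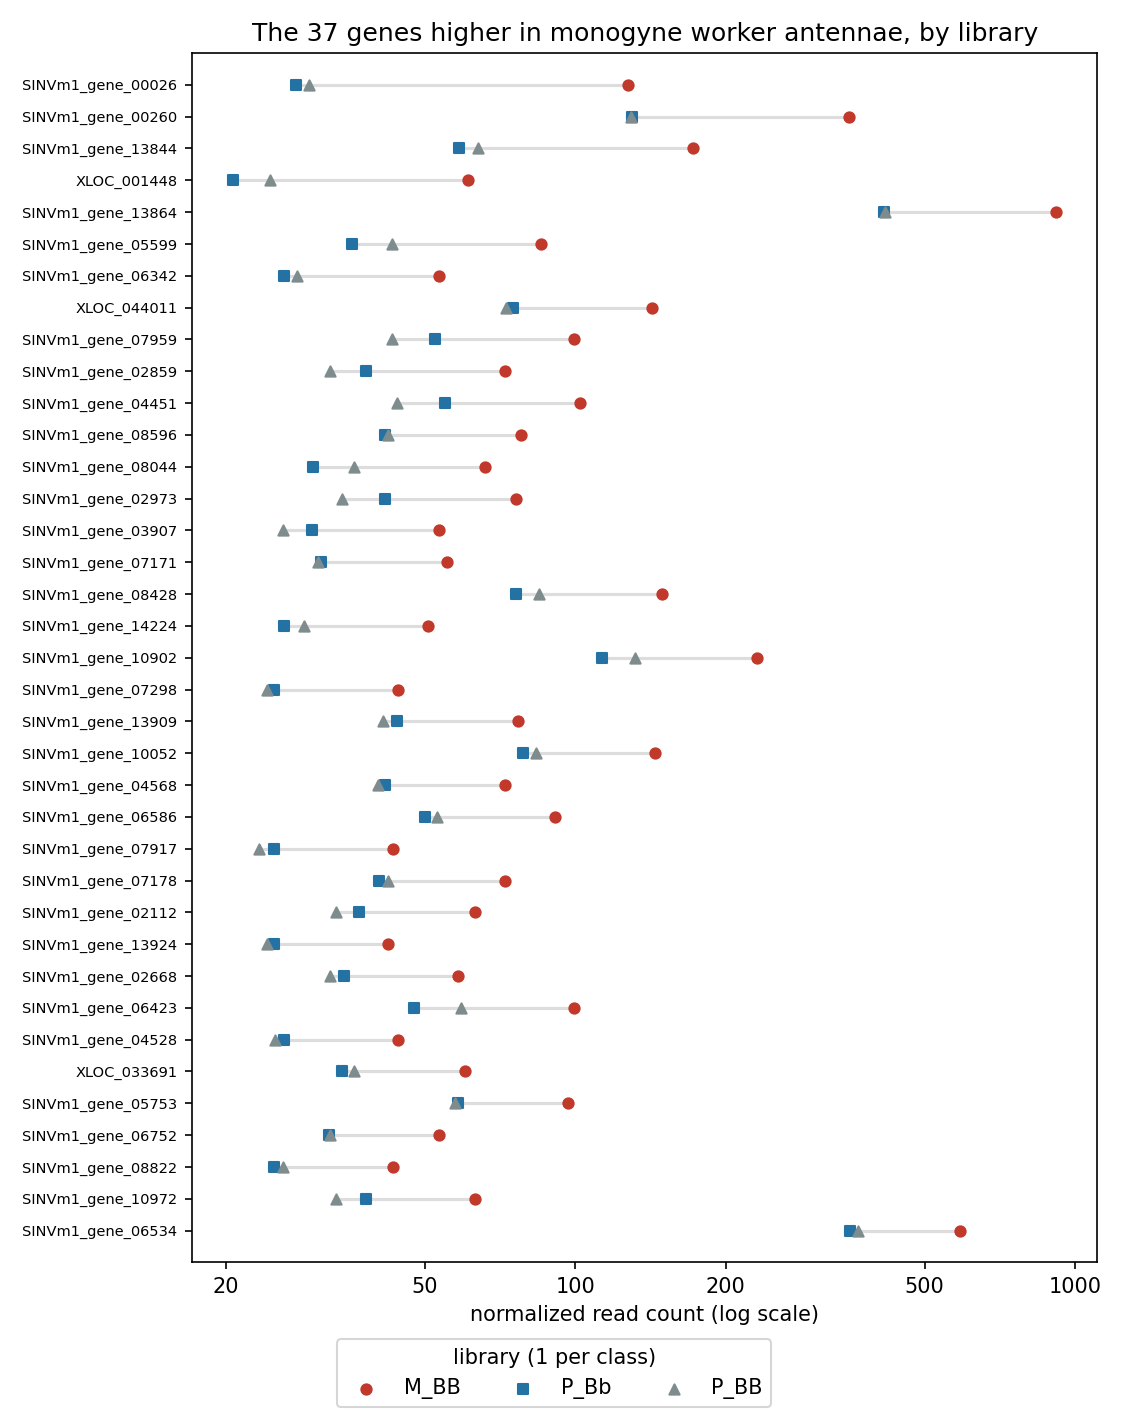
Normalized read count (log scale) of each of the 37 genes in the M_BB, P_Bb and P_BB libraries, 1 library per class, ordered from the gene with the largest to the gene with the smallest M_BB excess. M_BB lies to the right of both polygyne libraries in every row because the genes were chosen that way, and the polygyne points lie at most 1.24-fold apart.

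The gene with the largest excess was SINVm1_gene_00026, with 128 normalized reads in M_BB, against 27.6 in P_Bb and 29.3 in P_BB. It was the single gene of the 37 that exceeded both polygyne libraries at least 4-fold (log2 ratio 2.19 over P_Bb, 95% counting interval 1.56 to 2.82, and 2.10 over P_BB, 1.56 to 2.65). Even the lower ends of these intervals lie above both log2 ratios of every other gene of the 37.

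SINVm1_gene_00260 had 353 normalized reads in M_BB, against 129.7 in P_Bb and 129.1 in P_BB. Its polygyne values were nearly equal, and its excess was 2.71-fold over P_Bb and 2.72-fold over P_BB. With a coding length of 13341 bases it was by far the longest of the 37, so that its high read count corresponds to a modest level per length, 28.3 TPM in M_BB, 9.77 TPM in P_Bb and 9.32 TPM in P_BB. TPM divides reads by gene length and scales each library to a common total, which allows genes to be compared with each other.

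SINVm1_gene_13844 had 172 normalized reads in M_BB, 58.4 in P_Bb and 63.8 in P_BB. It is also long, with 6198 coding bases, and stood at 30.3 TPM in M_BB, against 9.71 TPM in P_Bb and 10.1 TPM in P_BB. These 3 genes were the ones at least 2.5-fold above both polygyne libraries.

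XLOC_001448, an antennal transcript that the authors added to the official gene set, had 60.9 normalized reads in M_BB, against 20.7 in P_Bb and 24.4 in P_BB. Its log2 ratio was 1.54 over P_Bb (0.78 to 2.29) and 1.30 over P_BB (0.66 to 1.94), with wide intervals that reflect its low counts. RSEM assigned some of its reads by likelihood, with a posterior SD of up to 7.14% of the posterior mean count. Its P_Bb value was the lowest of any of the 37 genes in any library.

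SINVm1_gene_13864 was the most abundant of the 37, with 917 normalized reads in M_BB, 415 in P_Bb and 416 in P_BB. It was 2.21-fold above P_Bb (log2 ratio 1.14, 0.97 to 1.32) and 2.20-fold above P_BB (1.14, 0.98 to 1.30), with intervals narrower than those of any other of the 37 genes at least 2-fold higher. Its level per length was 1765 TPM in M_BB, against 758 TPM in P_Bb and 723 TPM in P_BB. All of its reads were assigned without ambiguity. With it, 5 of the 37 genes were at least 2-fold above both polygyne libraries, and the other 32 lay between 1.602-fold and that level.

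**Figure D2:**
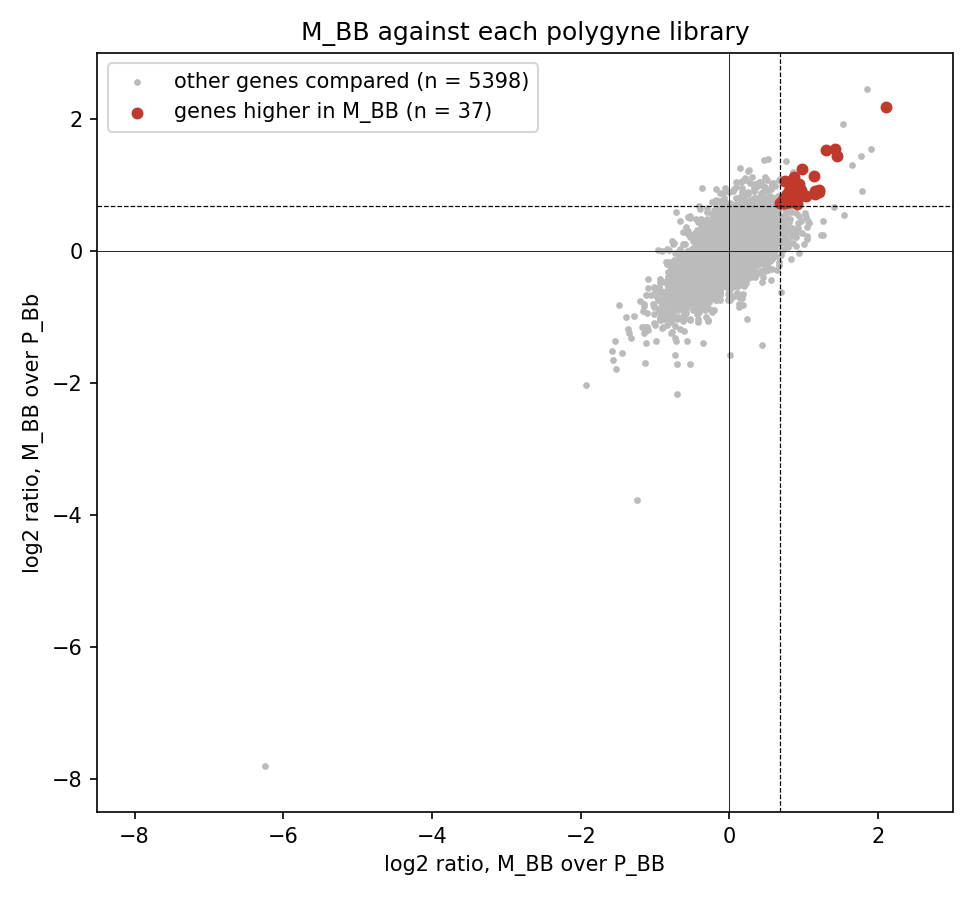
Log2 ratio of M_BB over P_BB (horizontal) and over P_Bb (vertical) for the 5435 genes compared, with the 37 genes in red, 1 point per gene, and dashed lines at the 1.6-fold limit. Most red points sit just beyond the limits and a few stand apart at the upper right, led by SINVm1_gene_00026 at 2.10 and 2.19. Grey points beyond both lines are genes whose polygyne libraries lay too far apart for the rule.

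A further 9 genes reached at least 1.8-fold over both polygyne libraries, making 14 at that level. SINVm1_gene_05599 had 85.3 normalized reads in M_BB, 35.7 in P_Bb and 43.0 in P_BB. SINVm1_gene_06342 had 53.5 in M_BB, 26.2 in P_Bb and 27.8 in P_BB. SINVm1_gene_08044 had 65.9 in M_BB, 29.9 in P_Bb and 36.0 in P_BB. In these 3 genes P_Bb was the lowest library, and each was over 2-fold higher in M_BB than in P_Bb but short of 2-fold over P_BB.

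The order of the polygyne libraries was the other way in 5 genes of this group. SINVm1_gene_07959 had 99.4 normalized reads in M_BB, 52.3 in P_Bb and 43.0 in P_BB. SINVm1_gene_02859 had 72.2 in M_BB, 38.1 in P_Bb and 32.3 in P_BB. SINVm1_gene_04451 had 102 in M_BB, 54.7 in P_Bb and 43.9 in P_BB, the widest gap between the polygyne libraries of the 37 genes. In each of them M_BB exceeded P_BB, the library of the same genotype, by over 2-fold (2.29-fold, 2.22-fold and 2.31-fold) and P_Bb by less (1.89-fold, 1.89-fold and 1.86-fold). SINVm1_gene_02973 followed the same order with 76.0 normalized reads in M_BB, 41.6 in P_Bb and 34.1 in P_BB. XLOC_044011, a second added antennal transcript, had 142.4 in M_BB, 74.9 in P_Bb and 72.5 in P_BB, with nearly equal polygyne values. SINVm1_gene_08596 also had nearly equal polygyne values, 41.6 in P_Bb and 42.1 in P_BB, and 77.8 in M_BB.

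The remaining 23 genes exceeded the closer polygyne library by 1.602-fold to 1.78-fold. The most abundant of them, and the one nearest the limit of all 37, was SINVm1_gene_06534, with 589 normalized reads in M_BB, 355 in P_Bb and 368 in P_BB. Its log2 ratio was 0.73 over P_Bb (0.53 to 0.93) and 0.68 over P_BB (0.50 to 0.86), so its small excess was measured with more counts than most of the larger ones. Its fold over P_BB, 1.602, stands almost at the limit itself.

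Among the other abundant genes of this group, SINVm1_gene_08428 had 149 normalized reads in M_BB, 76.1 in P_Bb and 84.5 in P_BB. SINVm1_gene_10052 had 144 in M_BB, 78.5 in P_Bb and 83.4 in P_BB. SINVm1_gene_05753 had 96.6 in M_BB, 58.3 in P_Bb and 57.4 in P_BB. SINVm1_gene_06586, with 91.0 in M_BB, 50.0 in P_Bb and 52.9 in P_BB, completes the genes of this group near or above 90 normalized reads in M_BB, beside SINVm1_gene_06423 and SINVm1_gene_10902.

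SINVm1_gene_10902 had the largest posterior SD of the 37 relative to its mean. It had 230.5 normalized reads in M_BB, 113 in P_Bb and 131 in P_BB, but RSEM placed part of these reads by likelihood only. Its 2 deposited estimates differ, with an expected count of 245.8 and a posterior mean count of 210.8 (posterior SD 35.8) in M_BB, 94.95 and 108 (SD 42.8) in P_Bb, and 146.6 and 139 (SD 39.6) in P_BB. The posterior SD reached 39.6% of the mean. On the posterior mean counts its excess over P_Bb was a log2 ratio of 0.61, against 1.03 on the expected counts, and it then fell short of the 1.6-fold limit. Its posterior mean TPM was 1213 in M_BB (95% credibility interval 761 to 1620), 738 in P_Bb (165 to 1261) and 709.5 in P_BB (334 to 1103), and the 3 intervals overlap.

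A group of moderate genes had 50 to 80 normalized reads in M_BB. SINVm1_gene_13909 had 76.9 in M_BB, 44.0 in P_Bb and 41.2 in P_BB. SINVm1_gene_04568 had 72.2 in M_BB, 41.6 in P_Bb and 40.3 in P_BB. SINVm1_gene_07178 had 72.2 in M_BB, 40.4 in P_Bb and 42.1 in P_BB. In all 3 the polygyne libraries were within a few reads of each other.

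SINVm1_gene_02112 had 62.8 in M_BB, 36.9 in P_Bb and 33.2 in P_BB. SINVm1_gene_10972 had 62.8 in M_BB, 38.1 in P_Bb and 33.2 in P_BB. XLOC_033691, the last of the 3 added antennal transcripts, had 60.04 in M_BB, 34.1 in P_Bb and 36.0 in P_BB. These differ little from each other in the size of the excess, 1.64-fold to 1.69-fold over the closer polygyne library.

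SINVm1_gene_02668 had 58.1 in M_BB, 34.5 in P_Bb and 32.3 in P_BB. SINVm1_gene_07171 had 55.3 in M_BB, 30.9 in P_Bb and 30.5 in P_BB. SINVm1_gene_03907 had 53.5 in M_BB, 29.7 in P_Bb and 26.0 in P_BB. Only the last of these reached 2-fold against a polygyne library, 2.04-fold over P_BB. SINVm1_gene_06752 also had 53.5 in M_BB, with 32.1 in P_Bb and 32.3 in P_BB. SINVm1_gene_14224 had 50.6 in M_BB, 26.2 in P_Bb and 28.7 in P_BB.

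The lowest genes had 42 to 44 normalized reads in M_BB and 23 to 26 in the polygyne libraries. SINVm1_gene_07298 and SINVm1_gene_04528 both had 44.1 in M_BB, against 24.98 and 26.2 in P_Bb and 24.2 and 25.1 in P_BB. SINVm1_gene_07917 had 43.1 in M_BB, 24.98 in P_Bb and 23.3 in P_BB. SINVm1_gene_08822 had 43.1 in M_BB, 24.9 in P_Bb and 26.0 in P_BB. SINVm1_gene_13924, with 42.2 in M_BB, 24.98 in P_Bb and 24.2 in P_BB, was the lowest in the monogyne library. An excess of this size at this depth is barely outside counting error, with lower bounds of the log2 ratio over P_Bb of 0.0048 in SINVm1_gene_13924, 0.017 in SINVm1_gene_04528, 0.039 in SINVm1_gene_07917 and 0.040 in SINVm1_gene_08822.

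Over the 37 genes, M_BB held 42.2 to 917 normalized reads (median 72.2), P_Bb 20.7 to 415 (median 38.1) and P_BB 23.3 to 416 (median 36.0). The median log2 ratio was 0.86 for M_BB over P_Bb and 0.86 for M_BB over P_BB, against -0.06 and -0.03 over all 5435 genes compared. These medians follow from the rule and are descriptive. The 95% counting intervals of both ratios, on the same counts that chose the genes, had lower bounds above 0 for all 37, which the limits on fold and count nearly fix. Between the polygyne libraries 18 of the genes were higher in P_Bb and 19 were higher in P_BB, with a median log2 ratio of -0.0026 (P_Bb over P_BB), a median gap of 1.06-fold and a largest gap of 1.24-fold, within the limit that the rule set.

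The share of 0.681% is set by the thresholds and is given with the shares that the same thresholds found in other directions. M_BB was the low library for 100 genes (1.84%). P_Bb was the high library for 16 genes (0.294%) and the low one for 36 (0.662%), and P_BB was the high library for 10 genes (0.184%) and the low one for 16 (0.294%). Which side of M_BB held more genes turned with the scaling. It was 37 genes higher and 100 lower as reported, 42 and 88 with median-of-ratios factors and 44 and 78 with TMM factors, but 152 and 27 under library totals and 77 and 44 on TPM.

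Genes just beyond each limit were much like those just inside. SINVm1_gene_02633, the first gene short of 1.6-fold, had 53.5 normalized reads in M_BB, 33.3 in P_Bb and 33.2 in P_BB, 1.596-fold over the closer library. SINVm1_gene_04883 and SINVm1_gene_08347 followed at 1.590-fold and 1.583-fold, while SINVm1_gene_10972 and SINVm1_gene_08822 stood just inside at 1.642-fold and 1.646-fold, next to SINVm1_gene_06534. In the gap between the polygyne libraries, SINVm1_gene_04451, SINVm1_gene_06423 and SINVm1_gene_02973 lay inside at 1.243-fold, 1.241-fold and 1.219-fold. SINVm1_gene_05070, SINVm1_gene_15573 and SINVm1_gene_02165 lay outside at 1.254-fold, 1.257-fold and 1.259-fold. Of these SINVm1_gene_15573 had 65.2 normalized reads in M_BB, against 23.8 in P_Bb and 18.8 in P_BB, an excess larger than in all but 2 of the 37 genes. In mean normalized count, SINVm1_gene_13924, SINVm1_gene_07917 and SINVm1_gene_07298 were inside at 30.5, 30.5 and 31.1, and XLOC_006071, SINVm1_gene_04240 and SINVm1_gene_07077 outside at 28.4, 27.8 and 27.5. No gene above the upper mean limit of 1500 met the other conditions (0 genes).

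The genes were of low to moderate abundance for this antennal data set, by a count that the rule itself used, so this is descriptive. Their mean normalized count had a median of 51.4, against 89.9 over all genes compared, with 17 of them below 50, 14 at 50 to 100 and 6 at 100 or more. By ID, 34 belonged to the official gene set (91.9%, against 72.4% of the genes compared) and 3 were added antennal transcripts (8.11%, against 27.6%). The official models hold coding sequence, since each of the 15340 single-transcript models has a length divisible by 3, so that reads lying in untranslated regions had no model to map to. Among genes of the official set, the median coding length was 1545 bases for the 34 genes and 1965 bases for the 3936 genes compared. Lengths over all 37 ran from 351 to 13341 bases, and 9 genes were shorter than 1000 bases.

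Levels per length were spread more widely than read counts. In M_BB the 37 genes ran from 10.7 TPM, in SINVm1_gene_08822, to 1765 TPM, in SINVm1_gene_13864, with a median of 63.6 TPM, against 52.0 TPM over all genes compared. In P_Bb their median was 31.1 TPM, against 51.7 TPM over all genes compared, and in P_BB it was 27.4 TPM, against 48.5 TPM. Their median was thus above that of the compared genes in the monogyne library and below it in both polygyne libraries. TPM comes from the same reads that chose the genes, so this order follows in part from the rule and is descriptive.

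In M_BB, 12 of the genes were above 100 TPM, 3 of these above 1000 TPM, and 15 were under 50 TPM. Beside SINVm1_gene_13864 and the uncertain SINVm1_gene_10902, the gene above 1000 TPM was SINVm1_gene_04451, whose coding length of 351 bases is the shortest of the 37 and whose level was 1017 TPM in M_BB, 526 TPM in P_Bb and 394 TPM in P_BB. SINVm1_gene_06534 had 583 TPM in M_BB, 367 TPM in P_Bb and 355 TPM in P_BB, and SINVm1_gene_05753 had 493 TPM in M_BB, 285 TPM in P_Bb and 265 TPM in P_BB. The order by TPM differs from that by excess, as SINVm1_gene_00026, first by excess, had 64.6 TPM in M_BB, 13.2 TPM in P_Bb and 13.4 TPM in P_BB.

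**Figure D3:**
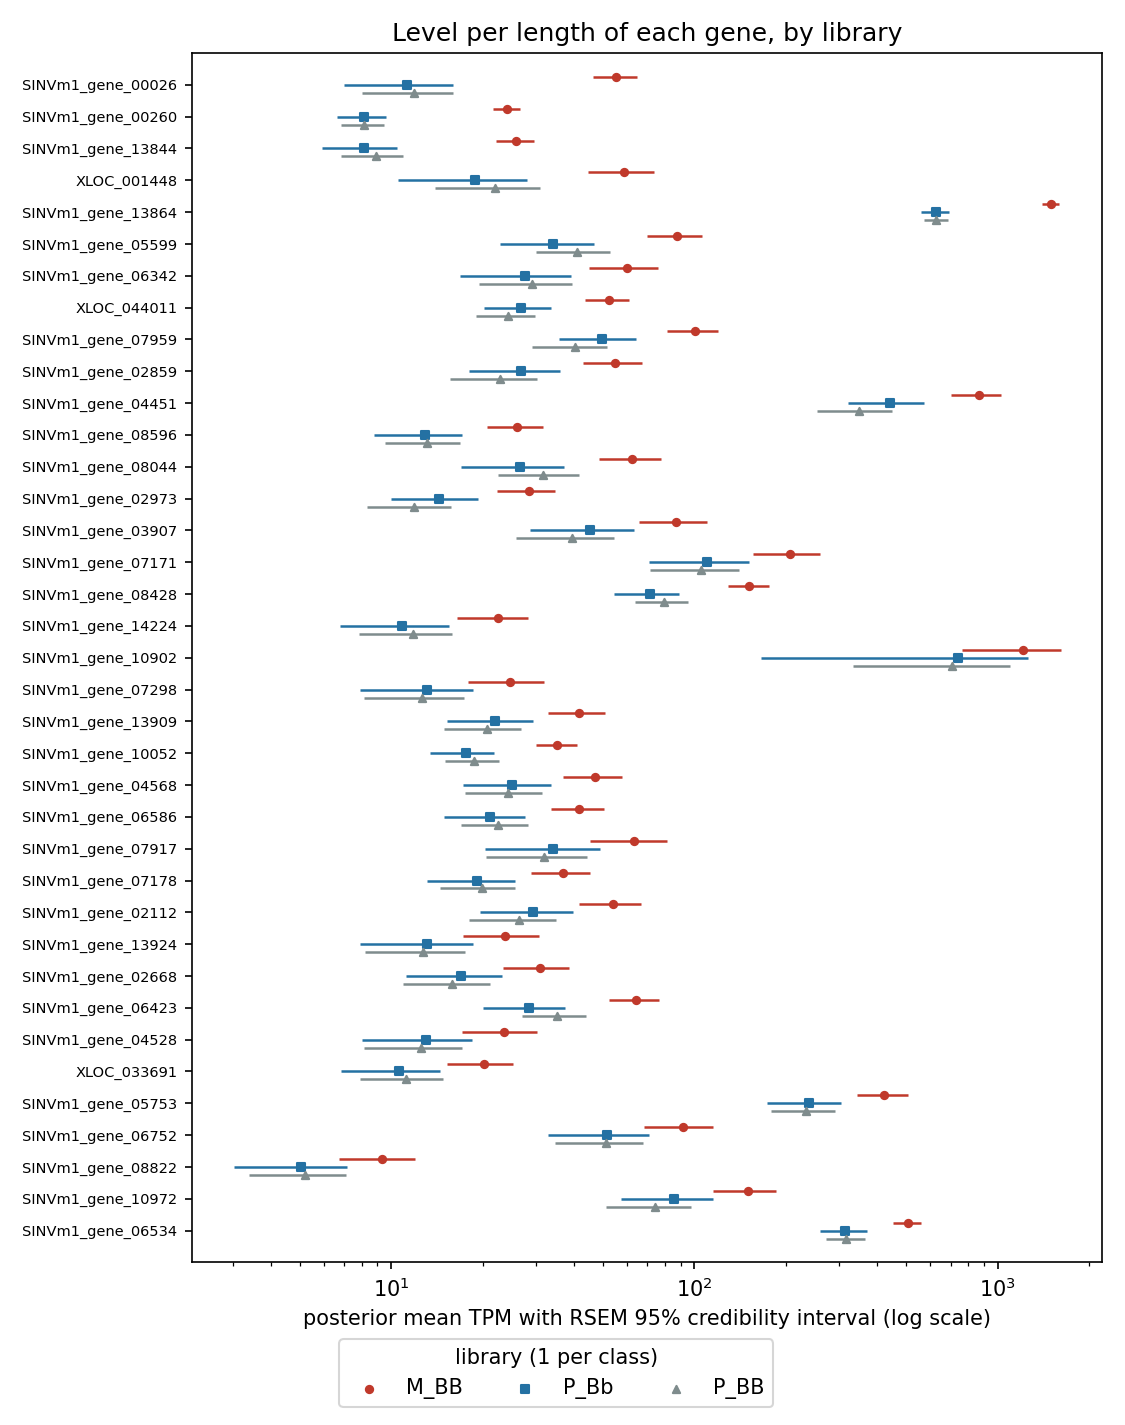
Posterior mean TPM (log scale) of the 37 genes in M_BB, P_Bb and P_BB, with RSEM's 95% credibility interval as a horizontal bar, 1 library per class. The M_BB interval lies above both polygyne intervals in 30 genes, on the same reads that chose them. No share over all genes compared was computed, so nothing is read from this count. The widest intervals belong to SINVm1_gene_10902.

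RSEM gave a 95% credibility interval of the posterior mean TPM that includes the uncertain placement of reads. It rests on the same reads that chose the genes, so a separation of the libraries follows in part from the choice. No share of such separation was computed over all genes compared, so nothing is read from its count. The M_BB interval lay above both polygyne intervals for 30 of the 37 genes. In SINVm1_gene_00026 it was 46.1 to 64.7 in M_BB, against 6.997 to 15.98 in P_Bb and 8.03 to 16.04 in P_BB. In SINVm1_gene_06423 it was 52.2 to 76.4 in M_BB, against 20.1 to 37.3 in P_Bb and 27.0 to 43.9 in P_BB. The interval overlapped that of a polygyne library in the other 7 genes, SINVm1_gene_10902, SINVm1_gene_07298, SINVm1_gene_07917, SINVm1_gene_13924, SINVm1_gene_04528, SINVm1_gene_06752 and SINVm1_gene_08822, of which all but the first had at most 53.5 normalized reads in M_BB.

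Shared reads were no more than a small part of most of these genes. For 19 genes the posterior SD was 0 in every library, and for 11 more it was at most 1% of the mean. It exceeded 1% in 7 genes (18.9%, against 14.5% of the genes compared) and 5% in 2 (5.41%, against 1.69%), SINVm1_gene_10902 and XLOC_001448. More than 1 transcript model was counted in 4 genes (10.8%, against 7.23%), XLOC_044011, SINVm1_gene_07959, SINVm1_gene_07171 and SINVm1_gene_06534. Counting gave both read strands equal probability, so reads of an overlapping gene on the other strand cannot be told apart in any of the 37.

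**Figure D4:**
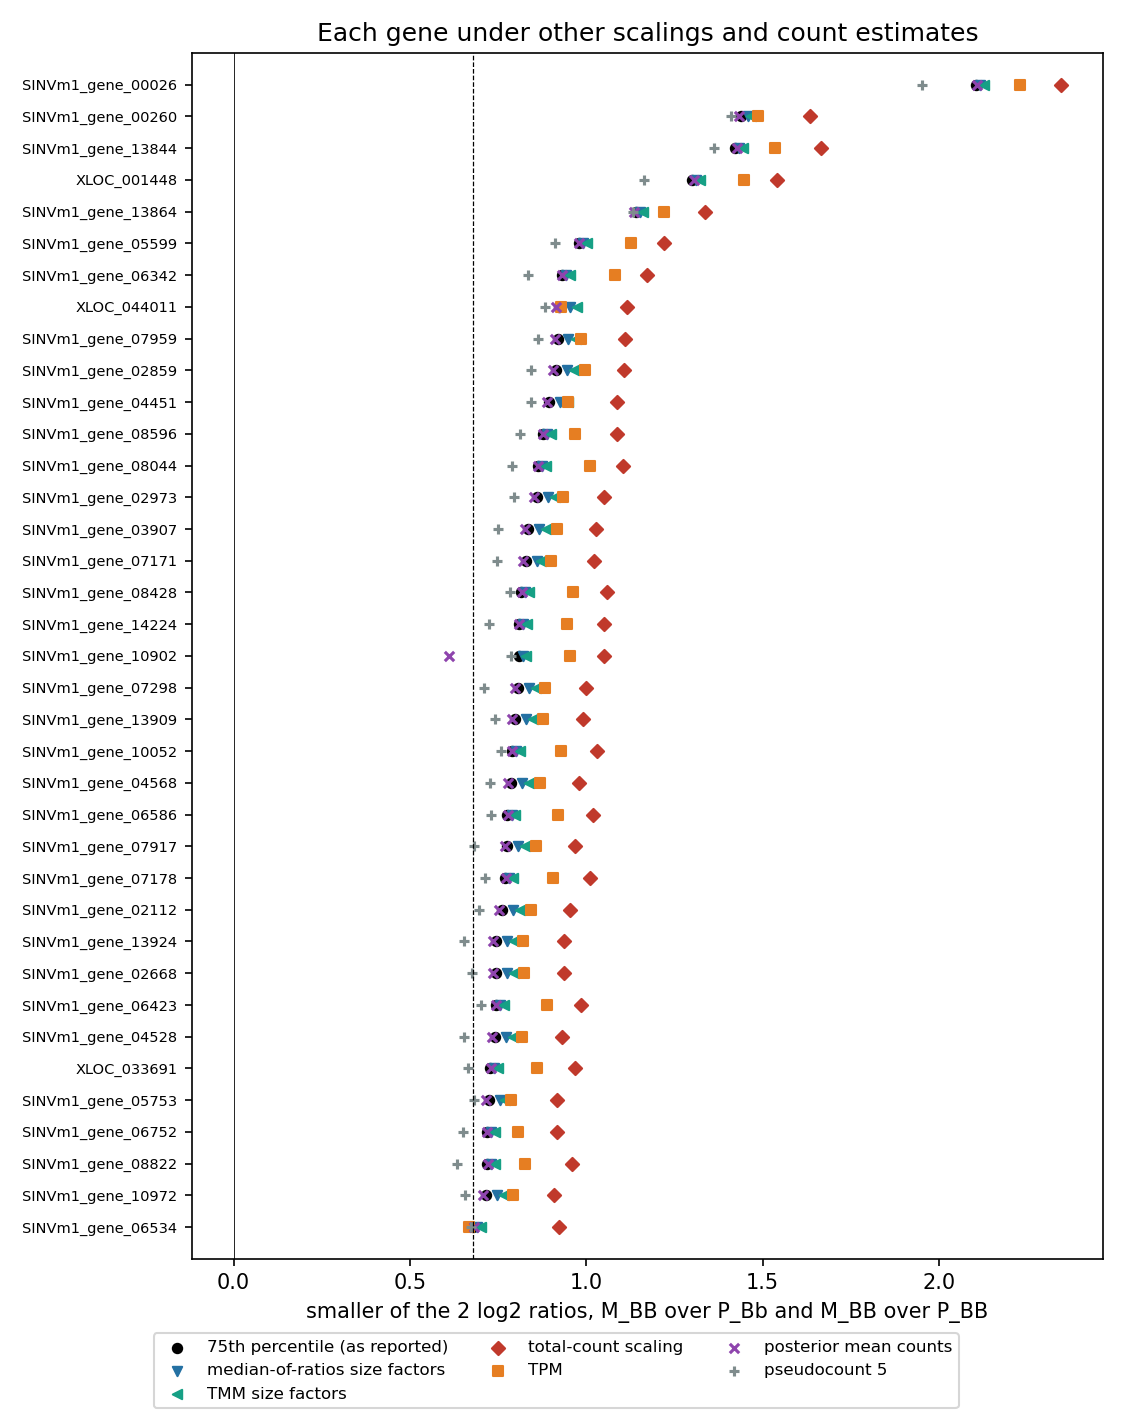
Smaller of the log2 ratios of M_BB over P_Bb and over P_BB (horizontal) for each of the 37 genes under 7 scalings, count estimates and pseudocounts, with a solid line at 0 and a dashed line at 1.6-fold. The lowest point is SINVm1_gene_10902 on posterior mean counts, at 0.61.

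Under 5 other scalings or estimates (median-of-ratios factors, TMM factors, library totals, TPM and posterior mean counts), 31 of the 37 met the rule each time. SINVm1_gene_07959, SINVm1_gene_04451 and SINVm1_gene_02973, with P_BB as the lowest library, dropped out under library totals and TPM, which set the polygyne libraries further apart, and SINVm1_gene_04451 also did on posterior mean counts. SINVm1_gene_06423 dropped out under both sets of size factors, since its polygyne libraries then lay too far apart. SINVm1_gene_10902 dropped out on posterior mean counts and SINVm1_gene_06534 on TPM, both for falling below 1.6-fold. A pseudocount of 5 took 8 of the 37 below 1.6-fold, SINVm1_gene_13924, SINVm1_gene_02668, SINVm1_gene_04528, XLOC_033691, SINVm1_gene_06752, SINVm1_gene_08822, SINVm1_gene_10972 and SINVm1_gene_06534.

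The study's text lists 21 genes as higher in monogyne workers, chosen on RNA that partly came from these same workers, so their direction here is not independent evidence. Of these, 19 averaged 10 or more normalized reads, and M_BB was above both polygyne libraries in 16 of those (84.2%, against 34.3% of all 8393 genes at that count). In all 5 passed 1.6-fold over both, against 207 of the 8393 genes at that count (2.47%), and 1 was below both by that margin, against 287 genes (3.42%). The median log2 ratio of the list was 0.36 over P_Bb and 0.66 over P_BB, against -0.04 and -0.02 over all 8393 genes. Only SINVm1_gene_06423 was also among the 37.

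The other 4 that passed 1.6-fold are 2 genes that the study assigns to fatty acid metabolism, 1 that it assigns to defence and 1 transporter. They missed the rule on the gap between polygyne libraries or on mean count. SINVm1_gene_14166, an acyl-delta desaturase-like gene, of a family that puts double bonds into fatty acids on the way to cuticular hydrocarbons and pheromones in insects, had 136 normalized reads in M_BB, 46.4 in P_Bb and 35.9 in P_BB. SINVm1_gene_12498, annotated as the ATP-binding cassette transporter ABCG1, whose mammalian namesake exports sterols, had 154 in M_BB, 66.6 in P_Bb and 85.2 in P_BB. Both had polygyne libraries just beyond the limit, 1.29-fold and 1.28-fold apart.

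SINVm1_gene_01163, a fatty acyl reductase-like gene, of a family that turns fatty acyl-CoA into alcohols, had 34.7 normalized reads in M_BB, 10.7 in P_Bb and 13.4 in P_BB. SINVm1_gene_02300, pro-phenol oxidase subunit 2, of the enzyme family that starts melanin formation in cuticle and blood, had 18.8 in M_BB, 8.33 in P_Bb and 6.27 in P_BB. Both were too low in count for the rule. The fatty acid synthase SINVm1_gene_00676, which builds the fatty acids that the other enzymes modify, was covered by an expected count of 5.11 in M_BB and 0 in both polygyne libraries, too few for a fold.

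A further 11 genes of that list were above both polygyne libraries but short of 1.6-fold over at least 1 of them. SINVm1_gene_01650, annotated as a glycerol-3-phosphate acyltransferase, which starts glycerolipid synthesis, had 68.4 normalized reads in M_BB, 48.8 in P_Bb and 43.0 in P_BB. SINVm1_gene_04127, a UDP-glucuronosyltransferase-like gene of a family that conjugates small lipophilic molecules, had 426 in M_BB, 330.1 in P_Bb and 344 in P_BB. SINVm1_gene_12026, a polyadenylate-binding protein, had 134 in M_BB, 96.4 in P_Bb and 105 in P_BB. These were higher in M_BB by 1.24-fold to 1.58-fold, less than in any of the 37. The other 8, SINVm1_gene_02017 (a guanylate cyclase), SINVm1_gene_00053 (the painless cation channel), SINVm1_gene_04716, SINVm1_gene_07970, SINVm1_gene_10887, XLOC_001622, XLOC_001842 and XLOC_043759, exceeded P_Bb by 1.03-fold to 1.49-fold and P_BB by 1.26-fold to 1.90-fold. Over P_BB alone, the library of the same genotype, 4 of them passed 1.6-fold, XLOC_043759 (1.90-fold), SINVm1_gene_00053 (1.81-fold), SINVm1_gene_10887 (1.72-fold) and XLOC_001622 (1.65-fold). The share of all genes that did so was not computed. For SINVm1_gene_00053 the counting interval of this log2 ratio, -0.10 to 1.81, holds 0. The posterior SD reached 10.9% of the mean in SINVm1_gene_00053 and 16.8% in SINVm1_gene_10887. XLOC_000138 had 7 expected counts in M_BB, 1 in P_Bb and 2 in P_BB, too few to compare. SINVm1_gene_03418, a transporter-like gene, had 41.3 normalized reads in M_BB, 47.6 in P_Bb and 43.0 in P_BB, below both, and SINVm1_gene_03610, a trehalose-phosphate synthase, had 23.4 in M_BB, 24.98 in P_Bb and 20.6 in P_BB.

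By the study's own process groups, 11 of its genes belong to chemical metabolism, of which 8 averaged 10 or more normalized reads, 3 were past 1.6-fold higher in M_BB and 0 past it lower, against 2.47% and 3.42% of all genes at that count. With 8 genes little can be read from the 0. The 3 past it higher, SINVm1_gene_14166, SINVm1_gene_01163 and SINVm1_gene_02300, are on the study's monogyne-higher list and were described with it above. The study found the genes of this group different on RNA partly from these same workers, so their direction is not independent evidence. None of the 11 was among the 37. Of 16 transposable element genes 12 averaged 10 or more normalized reads. M_BB was above both polygyne libraries in 2 of these (16.7%, against 34.3% of all genes at that count). It was below both in 8 (66.7%, against 40.8%). Past 1.6-fold, 0 were higher and 4 lower, against the same 2.47% and 3.42%. Of the 4, the study lists 2 (XLOC_042917 and XLOC_000229) as higher in SB/Sb workers and 1 (SINVm1_gene_00166) as different between all classes, so their place is not independent of P_Bb being high. The last was SINVm1_gene_10899, annotated as Mariner 29, which the study lists as higher in monogyne workers and which had 43.4 normalized reads in M_BB, against 130.1 in P_Bb and 72.8 in P_BB. Its reads were placed with a posterior SD of up to 47.5% of the mean. The study drew its lists from other libraries than these, though on RNA that partly came from the same workers. Of the 22 genes that the study lists as higher in polygyne workers, 19 had that mean count. M_BB was below both polygyne libraries in 18 of them (94.7%, against 40.8% of all genes at that count), 5 were past 1.6-fold lower and 0 were among the 37. This list was likewise chosen on RNA partly from these workers, so its direction here is not independent evidence.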

How the data were processed

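The authors mapped quality-controlled paired reads with Bowtie to the official gene set, extra antennal transcripts (XLOC) and receptor sequences (SiOR), and quantified genes with RSEM. The submitters' processing notes list Bowtie2, RSEM and Cuffdiff without versions. The deposited tables hold, for each library, the expected count (an estimated count, split by likelihood where a read fits several genes), the posterior mean count with its SD, TPM scaled by the authors' program to a common total, and a posterior mean TPM with a 95% interval. The deposited EBSeq tables hold posterior probabilities of expression patterns by gene and were not used, nor were the deposited transcript models, whose locus numbers differ. Gene IDs paired with no coordinates, so none are given.

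Expected counts were divided by size factors of 1.07 (M_BB), 0.841 (P_Bb) and 1.12 (P_BB), each being the 75th percentile of a library among the 14847 genes counted in any of them, scaled to a geometric mean of 1. Ratios were taken on counts plus a pseudocount of 0.5, so those of low genes are understated. Intervals of ratios are 95% Poisson intervals on the expected counts. The 37 genes, the lists and the limits were chosen with earlier results of these data known. All 37 genes are named, with the 3 nearest on each side of every limit and every gene of the study's list of monogyne-higher genes. No p-value was computed, since each class had 1 library. Alternatives were median-of-ratios and TMM factors (edgeR 4.0.16, on rounded expected counts), library totals, TPM, posterior mean counts, a pseudocount of 5 and other limits. The scripts (Python 3.11.15, numpy 2.4.6, pandas 2.3.3, scipy 1.17.1) were tested on simulated data.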

Additional observations from a re-analysis of the deposited data

How the results depend on the processing

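The number of genes meeting the rule followed the limits and the scaling. Against 37 as reported, it was 152 under library totals and 77 on TPM, 130 at a fold limit of 1.4 and 5 at 2, and 120 at a minimum mean of 10, 6 at 100 and 877 without a minimum, where most genes rest on few reads. It stayed between 31 and 44 under the other settings run (median-of-ratios and TMM factors, percentiles over genes counted in every library, posterior mean counts, a pseudocount of 5, a polygyne limit of 1.5-fold, no upper mean limit and both counting intervals above 0). Library totals moved the median of all genes with a mean of at least 10 to 0.22 (M_BB over P_BB) and 0.15 (M_BB over P_Bb), and TPM moved it to 0.13 and 0.04. The median log2 ratio of the 37 genes over P_Bb became 1.05 under library totals, 0.93 on TPM and 0.80 with a pseudocount of 5, and over P_BB 1.10, 1.01 and 0.79. Less the median of the 5435 genes under the same scaling, the excess was 0.92 over P_Bb and 0.90 over P_BB as reported. It was 0.92 and 0.90 under library totals, and 0.91 and 0.90 on TPM. A size factor moves all log2 ratios of a library pair almost equally. The match under library totals is therefore fixed in advance, and nothing is read from it or from the similar TPM values. The median of P_Bb over P_BB became 0.047 under library totals and 0.065 on TPM. The shift under library totals is that of the size factors. They were 1.07 (M_BB), 0.841 (P_Bb) and 1.12 (P_BB) as reported, and 0.964, 0.869 and 1.19 under library totals. Why the 2 sets of factors differ was not tested. Of the single-gene ratios, 3 of 74 moved beyond their counting interval under library totals and 1 on posterior mean counts. The choice of genes at 1.6-fold or more leaves little room for a change of sign under such scalings, and none is read from its absence. A pseudocount of 5 left 31 genes, 29 of them among the 37. The number of genes lower in M_BB under the same thresholds, an alternative chosen after seeing the data, was 100 as reported, 88 and 78 with median-of-ratios and TMM factors, 27 under library totals, 44 on TPM, 101 on posterior mean counts and 81 with a pseudocount of 5. Of the study's list of monogyne-higher genes, 3 rather than 5 passed 1.6-fold at a minimum mean of 30. No paired analysis was possible because each class has 1 library, so the classes share fewer than 2 replicate numbers. Depth limits the genes of lowest count, whose excess of 1.6 to 1.8-fold lies close to counting error, and no replicate shows how much libraries of 1 class vary.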
